A study of Ovis aries with 40 samples.

Results

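CFTR, the cystic fibrosis transmembrane conductance regulator, was followed through fetal lung development in sheep that carry a functional CFTR gene and in sheep in which it was disrupted. The gene was taken by its identifier, CFTR, from the gene-level read count tables of the study and is 1 of 24478 genes listed there. The data are bulk RNA-seq libraries of lung tissue pieces from American Romney sheep, 40 in all, in 20 groups of 2. Wild type (WT) and CFTR-/- (CF) animals were sampled at 5 ages, namely gestation days 65, 80, 100 and 120 and term (day 147), and proximal and distal lung pieces of the same animals were sequenced.

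Several features of the animals limit the comparison of genotypes. WT animals came from natural breeding and those of the term group were born naturally. The study recorded the time from birth to euthanasia and names it as a factor that can affect term lung RNA. The times themselves are not given, so at term birth and time after it cannot be told apart from genotype. CF animals were produced by somatic cell nuclear transfer from 1 male fetal fibroblast line in which exon 2 of CFTR had been targeted, so all CF animals are male clones of 1 line, while the sexes of the WT animals are not given. Genotype and cloning therefore cannot be told apart. The CF libraries collected before term were also deeper than the WT libraries, and there genotype and depth cannot be told apart either. Within each genotype the term libraries were deeper than all libraries before term. In comparisons of term with an earlier day, age and depth can thus not be told apart. Both WT day 100 libraries of each region carry the same animal label, and 1 animal label is shared by the second replicate of WT day 65 and the second replicate of CF day 100. The 2 libraries of a group were never identical. All p-values measure the spread between such pairs of libraries.

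CFTR is an ATP-gated chloride and bicarbonate channel of the apical membrane of epithelial cells, and it is opened by phosphorylation through cyclic AMP-dependent protein kinase. The fetal lung is filled with liquid that its own epithelium secretes. Chloride enters the cells from the blood side through the sodium-potassium-chloride cotransporter SLC12A2, driven by the sodium pump, and leaves into the lumen through apical anion channels, CFTR among them, with water following. Around birth the epithelium turns from chloride secretion to absorption of sodium through the epithelial sodium channel ENaC, and the liquid is cleared.

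In the sheep genome build Oar_v4.0, as annotated in the count tables, CFTR lies on the minus strand of chromosome 4, chr4:50644000-50864925, a span of 220926 bases. Its 136 annotated exon entries merge into 29 distinct blocks with a summed exonic length of 8292 bases, and 0 other annotated genes overlap the span. Reads were counted over all exons of the gene together, so the values are levels of CFTR RNA and do not show whether a transcript carries the edit in exon 2. A CF library can thus hold CFTR reads without any functional channel.

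CFTR was well covered in every library, with between 267 and 3731 counts. Before term, total counts assigned to genes ranged from 24670355 to 43700012 in WT (16 libraries) and from 85773994 to 103139483 in CF (16 libraries). At term the totals were 115937437 to 126749480 in WT and 117316905 to 119451372 in CF, with 4 libraries each. Among counts of 1 to 20, even numbers made up 69.2 to 85.8% of the values of a library. Levels are given below as counts per 1000000 assigned counts (CPM) after TMM scaling of the library sizes over all 40 libraries, with scaling factors between 0.751 and 1.19. CFTR ranged from 9.58 to 43.8 CPM in the 20 WT libraries and from 3.65 to 34.9 CPM in the 20 CF libraries. Divided by exonic length this is 1.15 to 5.28 RPKM in WT and 0.440 to 4.21 RPKM in CF, which places CFTR between percentiles 36.9 and 58.4 of the genes kept in WT libraries and between 29.7 and 52.7 in CF libraries. CFTR was thus a gene of middle or lower rank in whole lung tissue throughout.

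In WT proximal lung, CFTR was high early and low late. The 2 libraries held 37.9 and 29.1 CPM at 65 days, 43.0 and 43.6 at 80 days and 25.0 and 21.6 at 100 days. By 120 days they held 12.5 and 11 CPM, and at term 9.58 and 14.8. Day 80 stood above all other days without overlap, and the 2 latest time points overlapped each other. The group means were 33.5 ± 6.22, 43.3 ± 0.444, 23.3 ± 2.44, 11.8 ± 1.07 and 12.2 ± 3.70 CPM in order of age (SD, n = 2 each).

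WT distal lung followed a like course. CFTR was at 35.5 and 29.1 CPM at 65 days, 41.8 and 43.8 at 80 days, 31.9 and 26.7 at 100 days, 11 and 13.3 at 120 days and 10.6 and 12.8 at term. Day 80 was again highest without overlap, days 65 and 100 overlapped, and so did day 120 and term. The means were 32.3 ± 4.53, 42.8 ± 1.39, 29.3 ± 3.71, 12.1 ± 1.58 and 11.7 ± 1.51 CPM (SD, n = 2 each). Relative to its own day 80 mean, WT CFTR stood at 77.5% in proximal and 75.3% in distal lung at 65 days, at 53.9% and 68.4% at 100 days, at 27.2% and 28.4% at 120 days and at 28.2% and 27.3% at term.

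In CF proximal lung the early values were lower and more scattered. The libraries held 20.5 and 26 CPM at 65 days, 16.7 and 31.1 at 80 days, 16.2 and 13.0 at 100 days, 8.71 and 4.99 at 120 days and 3.89 and 5.14 at term. The 2 day 80 libraries lay on both sides of the 2 day 65 libraries, so no peak day stood apart, and day 120 overlapped term. The means were 23.2 ± 3.85, 23.9 ± 10.2, 14.6 ± 2.31, 6.85 ± 2.63 and 4.52 ± 0.883 CPM (SD, n = 2 each).

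In CF distal lung a highest day was again visible. CFTR was at 19.998 and 20.2 CPM at 65 days, 28.4 and 34.9 at 80 days, 19.2 and 23.2 at 100 days, 10.9 and 5.80 at 120 days and 3.65 and 4.86 at term. Day 80 lay above all other days and term below all other days, and only days 65 and 100 overlapped. The means were 20.1 ± 0.170, 31.6 ± 4.61, 21.2 ± 2.83, 8.36 ± 3.62 and 4.26 ± 0.856 CPM (SD, n = 2 each). At term CF CFTR had 18.9% of its day 80 mean left in proximal and 13.5% in distal lung.

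**Figure D1:**
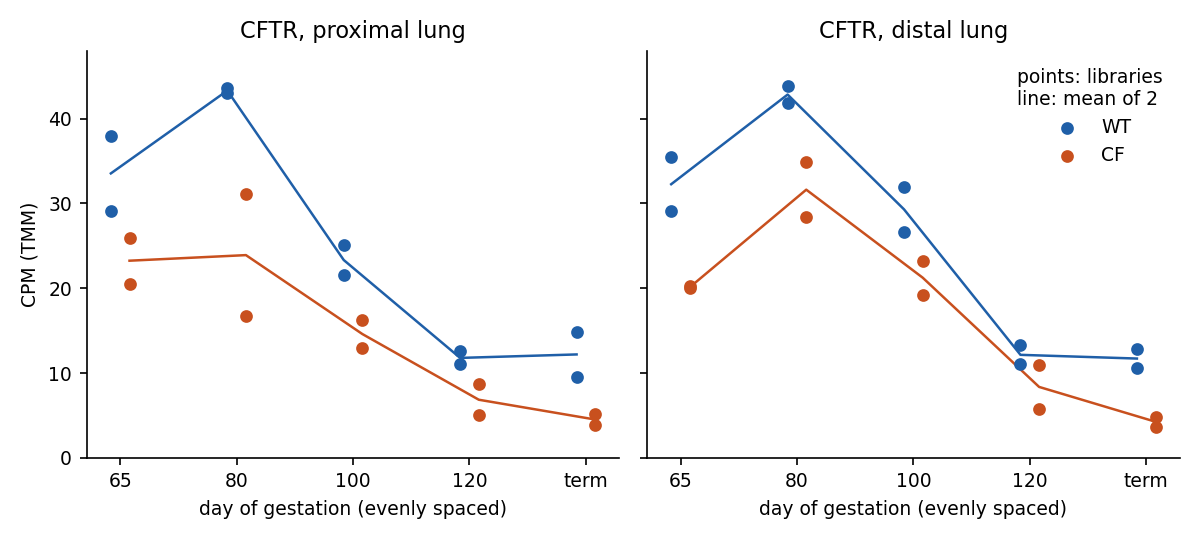
CFTR level in CPM (vertical axis, linear from 0) by gestational time point (horizontal axis, evenly spaced), proximal lung on the left and distal lung on the right. Points are libraries and lines join the means of 2 libraries per group, WT and CF in different colours. WT means run from 43.3 CPM (proximal, 80 days) down to 11.7 CPM (distal, term), and the CF points lie below the WT points at each of the 5 time points in both panels.

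The fall of CFTR from 80 days to term, a comparison in which the term libraries were also deeper, passed the test in all 4 courses. With edgeR's quasi-likelihood test and Benjamini-Hochberg adjustment over all genes tested, CFTR fell by 1.83 on the log2 scale in WT proximal (adjusted p = 2.7e-04), by 1.89 in WT distal (adjusted p = 1.3e-04), by 2.4 in CF proximal (adjusted p = 0.0192) and by 2.89 in CF distal lung (adjusted p = 4.4e-04). In means this is 3.55-fold, 3.66-fold, 5.29-fold and 7.43-fold. A fall was called for 19.7% of all genes in WT proximal, 20.1% in WT distal, 3.89% in CF proximal and 20.1% in CF distal lung, so outside CF proximal lung CFTR was 1 among a large share of the transcriptome. In CF proximal lung the call was lost without the second day 80 library (adjusted p = 0.137) and without either term library (0.0774 and 0.0934).

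Of the 16 steps between neighbouring time points, 1 passed the adjusted limit of 0.05 in edgeR, and 4 more passed with DESeq2 (adjusted p = 0.00876 and 0.00294 for 80 to 100 and 100 to 120 days in WT proximal, 0.00783 and 0.0299 for the last 2 steps in CF distal lung). CFTR fell by 1.27 on the log2 scale between 100 and 120 days in WT distal lung (edgeR, adjusted p = 0.0130, where 1.16% of genes fell). That call did not hold when any 1 of the 4 libraries of these 2 groups was left out (adjusted p of 0.0503 to 0.151), nor when the 2 WT day 100 libraries with 1 animal label were summed (0.122). In WT proximal lung the edgeR step from 80 to 100 days was -0.91 (adjusted p = 0.0844) and that from 100 to 120 days -0.97 (adjusted p = 0.0603), both short of the limit in edgeR. The last step, from 120 days to term, had a CFTR log2 change of 0.05 in WT proximal and -0.07 in WT distal lung (edgeR adjusted p = 0.893 and 0.801), against -0.64 in CF proximal and -1.0 in CF distal lung (edgeR adjusted p = 0.548 and 0.0570). Between 65 and 80 days CFTR changed by 0.36, 0.40, 0.05 and 0.68 on the log2 scale in WT proximal, WT distal, CF proximal and CF distal lung, with edgeR adjusted p between 0.299 and 1. The day 80 maximum was therefore not separable from day 65 by this test. Across the table, the 4 steps in order called 0.011, 1.94, 2.67 and 24.6% of genes in WT proximal, 0.0164, 1, 2.49 and 25.8% in WT distal, 0, 0, 0.0203 and 0.356% in CF proximal and 0, 0, 0.928 and 23% in CF distal lung. The last step, in which so many genes changed in WT lung, was thus the one with the smallest log2 change of CFTR in WT.

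Tested over all 5 time points at once, CFTR varied with age in each course. The edgeR adjusted p was 4.6e-04 in WT proximal, 2.5e-04 in WT distal, 0.0460 in CF proximal and 0.00194 in CF distal lung, with 40.8, 40.4, 5.36 and 33.9% of all genes called. The CF proximal call was close to the limit and was lost without any 1 of 8 of its 10 libraries, with adjusted p of up to 0.167.

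CFTR RNA was lower in CF than in WT lung at each age. Both CF libraries lay below both WT libraries in 10 of 10 conditions, the 5 time points in each of the 2 regions. Of 20779 genes compared in this way, 162 lay below and 449 above in every condition, 0.78% and 2.16%. The narrowest gap was in distal lung at 120 days, where the higher CF library had 10.9 CPM and the lower WT library 11 CPM. CF means were 69.3, 55.2, 62.6, 58.1 and 37.0% of the WT means from 65 days to term in proximal lung, and 62.4, 73.8, 72.5, 68.9 and 36.3% in distal lung. CF CFTR was thus reduced but present. Its share of the WT level was smallest at term in both regions, where birth and time after it cannot be told apart from genotype.

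Averaged over the 5 time points, CFTR was 0.88 lower on the log2 scale in CF than in WT proximal lung (SD over days 0.336), or 1.83-fold lower. In distal lung the difference was -0.73 (SD over days 0.423), or 1.66-fold lower. In exact two-sided permutation tests that exchanged genotype within days, each difference had p = 2.57e-04, the smallest value the design allows, and 3.86e-04 after adjustment over the 6 permutation tests made on CFTR. This p follows from the order given above, with both CF libraries below both WT libraries at each age, and adds no separate support. The tests count the 2 WT day 100 libraries, which carry 1 animal label, as more independent than the label allows. Both regions come from the same animals, so their results are not independent of each other. The average over time points in edgeR was -0.86 ± 0.16 (SE) in proximal lung with adjusted p = 0.00185, and -0.71 ± 0.12 in distal lung with adjusted p = 4.3e-04. By the same test 7.91% of all genes were called lower in proximal and 13.2% in distal lung, of 21.8 and 31.2% called in either direction. Without the library that shares its animal label across genotypes, WT day 65 replicate 2 or CF day 100 replicate 2, the edgeR average stayed between -0.89 and -0.82 in proximal lung and at -0.75 in distal lung.

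At single time points, CFTR passed the limit at term. It fell by 1.43 on the log2 scale in CF against WT lung at term in both regions, with SE 0.35 and edgeR adjusted p = 0.0282 in proximal lung and SE 0.27 and edgeR adjusted p = 0.00329 in distal lung. At that stage 3.49% of genes in proximal and 7.57% in distal lung were called lower in CF, of 6.09 and 15.2% called in either direction. The proximal call was lost without the second WT term library (-1.08, adjusted p = 0.247), the first CF term library (-1.26, adjusted p = 0.118) or the second CF term library (-1.67, adjusted p = 0.0928), while the distal call held without any 1 library (adjusted p up to 0.0181). Before term the differences were -0.53, -0.86, -0.68 and -0.78 in proximal lung and -0.68, -0.44, -0.48 and -0.52 in distal lung, in order of age, with edgeR adjusted p between 0.154 and 0.557. Few genes were called in either direction at these ages, 0.167, 0.0885, 0.383 and 1.35% of all genes in proximal and 5.23, 5.92, 5.3 and 4.38% in distal lung.

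In bulk tissue, fewer cells of a type and less RNA per cell cannot be told apart. CFTR is a gene of epithelial cells, and its level was therefore also read against 17 epithelial marker genes measured in the same libraries, among them EPCAM, CDH1, KRT8, CLDN4 and GRHL2. Their mean log2 level differed between CF and WT by 0.03, 0.17, 0.08, 0.20 and -0.33 in proximal lung and by -0.01, 0.01, 0.07, -0.12 and -0.40 in distal lung, from 65 days to term. CFTR relative to these markers was lower in CF by 0.56, 1.10, 0.76, 1.03 and 1.09 on the log2 scale in proximal lung and by 0.66, 0.46, 0.53, 0.48 and 1.06 in distal lung. The averages were -0.91 (SD over days 0.238) and -0.64 (SD over days 0.249), each with an exact two-sided permutation p = 2.57e-04, and both CF libraries lay below both WT libraries in 10 of 10 conditions on this scale too. That order again fixes the p, and the WT day 100 libraries again count as independent. The average CFTR difference was therefore of like size against the epithelial markers and against all RNA. At term, when the markers themselves were also lower in CF, it was smaller against them, at -1.09 and -1.06 beside edgeR estimates of -1.43.

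**Figure D2:**
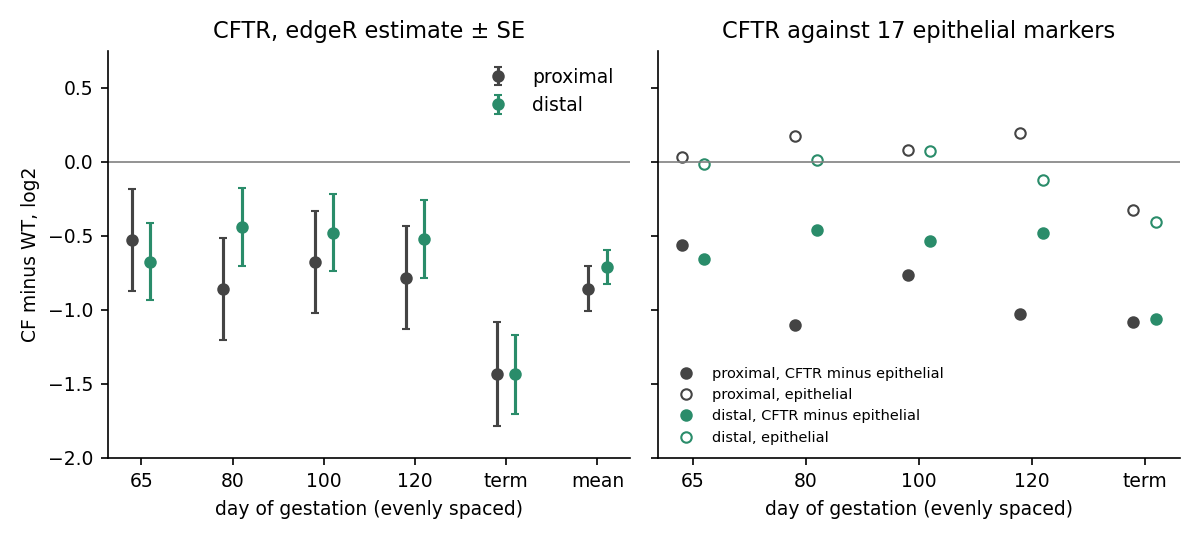
Difference in CFTR between CF and WT lung on the log2 scale (vertical axis, 0 is no difference) by time point. The left panel plots the edgeR estimate with its SE for each time point and for their average, and the right panel plots CFTR minus the mean of the 17 epithelial markers (filled) and the markers themselves (open). All CFTR estimates lie below 0, with both term estimates at -1.43, while the open points stay between -0.40 and 0.20.

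Whether the time course of CFTR differed between genotypes was tested as an interaction. The change from 120 days to term was lower in CF than in WT by 0.65 on the log2 scale in proximal (edgeR, adjusted p = 0.567) and by 0.91 in distal lung (adjusted p = 0.137), and neither passed. In that step 1.78% of genes in proximal and 9.31% in distal lung passed. The 3 earlier steps differed between genotypes by -0.33, 0.18 and -0.10 in proximal and by 0.23, -0.04 and -0.04 in distal lung, with edgeR adjusted p between 0.824 and 1 (0, 0 and 0% of genes called in proximal, 0, 0.00996 and 0% in distal lung). The joint test over all steps gave an edgeR adjusted p = 0.936 in proximal and 0.311 in distal lung, where 0.462% and 4.64% of genes passed. The larger CFTR deficit at term is thus a difference in size that the interaction did not separate from the spread of the replicates. Without the second CF day 120 distal library the distal step passed (adjusted p = 0.0149), and the 2 CF day 120 distal libraries, at 10.9 and 5.80 CPM, were far apart.

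Proximal and distal lung were not separated by their CFTR level. Between paired libraries, distal lung was higher than proximal in 5 of 10 WT and 6 of 10 CF pairs. The 2 WT day 100 pairs carry 1 animal label, so the WT test counts them as more independent than the labels allow. The mean difference was 0.05 on the log2 scale in WT (SD 0.203, exact permutation by sign changes within pairs, two-sided, p = 0.410) and 0.20 in CF (SD 0.378, exact permutation p = 0.137), where the smallest p allowed is 0.00195. In edgeR none of the single time points passed in either genotype. The log2 differences were -0.05, -0.02, 0.33, 0.06 and -0.03 in WT and -0.18, 0.49, 0.53, 0.25 and -0.09 in CF, from 65 days to term. Few genes of any kind were called between the regions, with 0, 0, 0.0534, 0.0962 and 0.0267% of genes called in WT and 0% at each age in CF. With 2 pairs per age, few calls do not show that the regions are alike. A difference in CFTR between the regions was not detectable beyond the spread between animals. Without the second CF day 65 animal the CF difference was 0.26 with an exact permutation p = 0.0391.

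**Figure D3:**
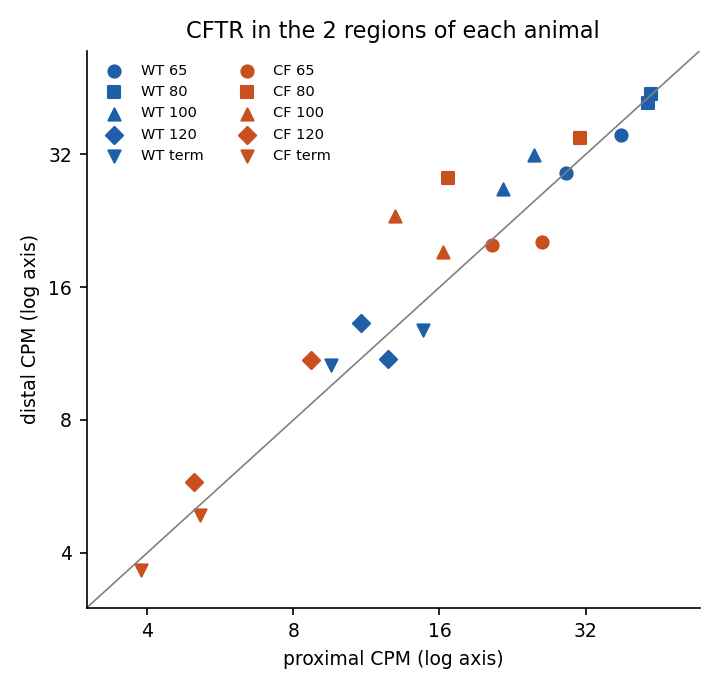
CFTR in distal lung against CFTR in proximal lung of the same animal, both in CPM on log axes, with the line of equality. Each point is 1 proximal and distal pair of libraries, coloured by genotype. Points scatter on both sides of the line, with 5 of 10 WT and 6 of 10 CF pairs above it.

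The replicate spread of CFTR itself differed between the courses. Pooled over groups, the SD of log2 CPM between the 2 replicates was 0.313, made up of 0.172 in WT distal, 0.249 in WT proximal, 0.342 in CF distal and 0.428 in CF proximal lung. Of the 9 conditions with 2 animal labels, the animal with more CFTR in proximal lung was also the one with more in distal lung in 5. When all 20 groups were ordered by mean CFTR, 17 of the 19 neighbouring pairs overlapped, and breaks lay only after WT distal 80 days and after CF distal 65 days. The groups above the first break were the WT day 80 groups of both regions.

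Genes with the most similar course to CFTR were found by Pearson correlation of log2 CPM over the 40 libraries, for 14244 genes with an average log2 CPM of at least 1. These libraries share ages, genotypes and animals, so the coefficients are descriptions. The median gene had r = -0.02 with CFTR, and 447 genes had r above 0.8. The most alike gene was CHEK1, a cell cycle checkpoint kinase, with r = 0.95 (0.94 within WT and 0.95 within CF libraries). Others among the most alike were KIF21A, a kinesin, and CDK1, the kinase of mitotic entry (both 0.94), STK26 (0.94), FAM20B, LOC106990114, the guidance molecule SEMA3A and RCC1 (all 0.93) and CASC5 of the kinetochore (0.92). The genes of most opposite course were LOC106990802 (-0.96), ECSCR, an endothelial surface protein (-0.94), and CHRNE, LOC101122548 and LOC101107260 (all -0.93).

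CHEK1 shows how close this likeness is. Its mean was 39.6, 35.3, 19.97, 11.5 and 13.9 CPM from 65 days to term in WT proximal and 36.6, 41.3, 22.6, 11.5 and 13.5 CPM in WT distal lung. In CF lung CHEK1 went from 30.8 CPM at 65 days to 3.92 at term in proximal and from 28.1 to 4.30 in distal lung. As with CFTR, the CF term means of CHEK1 were below all other CHEK1 means of the series, and the WT term means were close to those at 120 days.

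Some genes of the undifferentiated tips of the branching lung had a course like that of CFTR. In these epithelial progenitors SOX9 and the FGF-responsive factors ETV4 and ETV5 are active. Among listed genes outside the cell cycle group, r with CFTR was 0.88 for HMGA2, 0.85 for ETV5, 0.82 for WNT2, 0.81 for the cartilage collagen COL2A1 and 0.77 for SOX9. Of the other tip genes, ETV4 had r = 0.68 and MYCN 0.52, while ID2 went the other way, with r = -0.53 over all libraries, -0.87 in WT and -0.56 in CF. For SOX9 the value within genotypes was higher, 0.96 in WT and 0.91 in CF libraries. From 80 days to term 5 of 7 tip genes fell in WT proximal, 5 in WT distal, 2 in CF proximal and 5 in CF distal lung (edgeR, adjusted p of 0.05 or less; background 19.7, 20.1, 3.89 and 20.1%), with list medians of -2.10, -2.34, -2.36 and -2.86 against 0.03, 0.02, -0.09 and -0.04 over all genes tested.

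SOX9 and CFTR differed in how they stood in CF lung. In distal lung SOX9 was at 134 and 127 CPM in CF against 89.9 and 121 CPM in WT at 65 days, at 161 and 169 against 96.5 and 74.2 at 80 days and at 88.9 and 80.8 against 40.6 and 39.0 at 100 days. At these 3 ages both CF libraries lay above both WT libraries for SOX9, whereas for CFTR both lay below. Over all time points SOX9 rose in CF distal lung by 0.63 (edgeR, adjusted p = 0.0099, 18% of genes higher) and had a difference of 0.46 in proximal lung, which did not pass. Of the 7 tip genes, 2 were higher and 0 lower in CF distal lung, SOX9 and ETV4 (0.44, adjusted p = 0.044), and 0 passed in proximal lung, with list medians of 0.07 and 0.04 against 0.01 and 0.04 over all genes.

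General epithelial markers did not share the course of CFTR. EPCAM had r = -0.03 with it over the 40 libraries. Of 17 epithelial markers, 13 rose and 0 fell from 80 days to term in WT proximal lung, 14 rose and 0 fell in WT distal, 0 changed either way in CF proximal and 11 rose in CF distal lung. In the same fits 21.7, 21.5, 3.58 and 21.3% of all genes rose, so few genes of any kind were called in CF proximal lung. Alveolar markers had negative coefficients with CFTR to unequal degrees. The values over the 40 libraries were -0.85 for the type 2 cell protease NAPSA, -0.82 for the surfactant gene SFTPA1, -0.84 for the water channel AQP5 and -0.83 for HOPX of type 1 cells, but also -0.47 for CLIC5, -0.39 for RTKN2, -0.28 for CAV1 and -0.12 for LAMP3. Of the endothelial genes, PECAM1 had r = -0.86, TEK -0.78, CDH5 -0.62 and KDR -0.34, while VWF had 0.30.

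**Figure D4:**
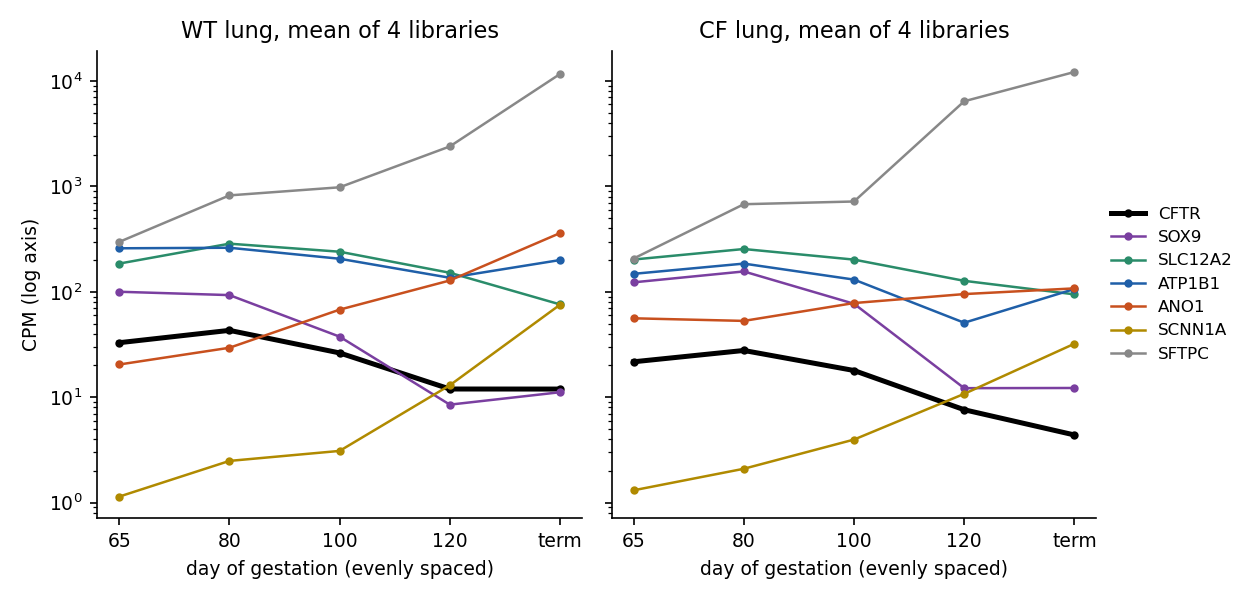
Mean level in CPM (log axis, mean of the 4 libraries of a time point, both regions) of CFTR and 6 other genes by time point, WT on the left and CF on the right. The lines of CFTR, SOX9 and SLC12A2 end lower at term than at 80 days, and those of ANO1, SCNN1A and SFTPC end higher. CPM is not divided by gene length, so the plot compares courses and not levels between genes.

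Genes of chloride secretion followed CFTR in part. SLC12A2, the cotransporter that loads the cells with chloride, had r = 0.78 with CFTR over all libraries and 0.91 within CF libraries. In WT lung it was highest at 80 and 100 days, with 312 and 290 CPM at 80 days and 80.0 and 93.6 at term in proximal lung, and 275 and 268 CPM at 80 days and 82.7 and 47.5 at term in distal lung. SLC12A2 fell from 80 days to term by 1.80 in WT proximal, 2.09 in WT distal and 1.73 in CF distal lung, and its CF proximal difference of -1.07 did not pass. Between genotypes SLC12A2 did not pass, with average differences of -0.17 in proximal and 0.08 in distal lung. At the same scale of length, mean WT SLC12A2 at 80 days was 40.2 RPKM in proximal and 36.3 RPKM in distal lung.

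The beta subunit of the sodium pump, ATP1B1, was a secretion gene with the same order of genotypes as CFTR. In distal lung it was at 235 and 275 CPM in WT against 158 and 136 in CF at 65 days, at 250 and 254 against 185 and 211 at 80 days, and at 173 and 176 against 94.4 and 108 at term. Both CF libraries of ATP1B1 lay below both WT libraries in 10 of 10 conditions (0.78% of all genes compared). ATP1B1 fell in CF by 0.93 in proximal (edgeR average, adjusted p = 5.9e-05) and by 0.79 in distal lung (adjusted p = 4.2e-06). The potassium channel KCNN4, which recycles potassium at the basolateral side, fell by 1.30 and 1.54 (adjusted p = 0.017 and 0.0055), and KCNQ1 fell by 0.61 in distal lung (adjusted p = 0.021).

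Several other anion transporters went the opposite way to CFTR in CF lung. SLC26A9, an apical chloride channel and exchanger that can bind CFTR, rose by 0.99 in proximal (edgeR average, adjusted p = 0.0079) and by 1.22 in distal lung (adjusted p = 0.0014). Its level at 65 days was 8.87 and 8.46 CPM in WT against 20.4 and 20.1 CPM in CF proximal lung, and 7.06 and 6.81 against 16.4 and 18.9 CPM in distal lung, without overlap. At term 1 CF library of each region was far above the other, at 61.8 and 18.7 CPM in proximal and 76.6 and 13.5 CPM in distal lung. SLC26A6, the chloride channel CLCN2 and the anion exchanger SLC4A2 also rose, by 0.82, 0.69 and 0.63 in proximal and by 0.95, 0.66 and 0.52 in distal lung. In all, 4 of 15 tested secretion genes were higher and 3 lower in CF proximal lung (21.8% of all genes called), and 4 higher and 4 lower in distal lung (31.2%), with medians of 0.52 and 0.33 against 0.04 and 0.01 over all genes.

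ANO1, the calcium-activated chloride channel, had a course opposite to that of CFTR. It rose (edgeR, adjusted p = 2.6e-06 in WT proximal and 8.2e-06 in WT distal lung) from 32.9 and 31.6 CPM at 80 days to 346 and 395 at term in WT proximal lung, and from 28.6 and 24.8 to 365 and 336 in WT distal lung. In RPKM, ANO1 was at 6.46 in WT proximal and 5.35 in WT distal lung at 80 days, when the highest CFTR library had 5.28, and at 74.3 and 70.3 at term, when CFTR was near its lowest. In CF lung ANO1 was higher than in WT at 65 days, by 1.39 in proximal (edgeR adjusted p = 0.0211) and 1.52 in distal lung (adjusted p = 0.00145). At term ANO1 was lower in CF, by 1.76 (adjusted p = 3.6e-04) and 1.70 (adjusted p = 2.1e-04), with 101 and 119 CPM in proximal and 118 and 93.4 CPM in distal lung. Averaged over time points ANO1 did not pass (-0.02 and 0.17).

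Genes of sodium absorption rose as CFTR fell. From 80 days to term 7 of 9 rose and 0 fell in WT proximal and in WT distal lung, 4 rose in CF proximal and 5 in CF distal lung (edgeR; 21.7, 21.5, 3.58 and 21.3% of all genes higher), with list medians of 3.84, 3.50, 1.40 and 1.26. SCNN1A, the alpha subunit of ENaC, had r = -0.67 with CFTR. It was at 2.42 and 3.02 CPM at 80 days and 60.2 and 95.9 at term in WT proximal lung, against 1.71 and 2.44 and then 25.0 and 43.0 in CF. Between genotypes at term, 2 of 9 absorption genes were lower in CF proximal lung and 2 lower and 1 higher in distal lung (background 6.09 and 15.2%). The beta subunit SCNN1B fell by 2.45 (adjusted p = 0.0077) and 2.59 (adjusted p = 1.8e-04), and SGK1, the kinase that protects ENaC from degradation, by 2.57 (adjusted p = 0.017) and 2.36 (adjusted p = 0.0051). The gene that was higher in distal lung was NEDD4L, the ubiquitin ligase that removes ENaC from the membrane (0.93, adjusted p = 0.038).

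Proteins that hold CFTR at the apical membrane and recycle it were tested as a list of 15 genes. In CF, 2 were higher and 2 lower in proximal and 4 higher and 3 lower in distal lung, with medians of -0.03 and -0.04 against 0.04 and 0.01 over all genes, of which 21.8 and 31.2% were called. PDZD3, a PDZ scaffold protein, lay above WT in 10 of 10 conditions (2.16% of all genes compared) and rose by 1.39 and 1.41. Its level was low, at most 2.33 CPM in WT and 6.44 CPM in CF proximal lung. RAB11A of the recycling endosome fell by 0.37 and 0.25, the motor MYO5B by 0.38 in distal lung, and SLC9A3R1, the NHERF1 scaffold that binds the tail of CFTR, by 0.43 in distal lung (edgeR average, adjusted p = 0.027) and by 1.2 in distal lung at term (adjusted p = 0.018). FLNA, a filamin that ties CFTR to actin, rose by 0.34 and 0.35, and the syntaxin STX1A by 0.68 in distal lung.

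Of 18 genes of cyclic AMP and kinase control of the channel, 1 was higher and 5 lower in CF in each region, with medians of -0.20 and -0.18 against 0.04 and 0.01 over all genes. In distal lung this share is close to the 31.2% of all genes called, and in proximal lung 21.8% were called. Genes lower in both regions included the kinase STK39 of the cotransporter pathway (-0.72 in both), the anchoring protein AKAP9 (-0.50 in proximal and -0.37 in distal lung) and the protein kinase A regulatory subunits PRKAR2B (-0.54 and -0.45) and PRKAR2A (-0.44 and -0.32). STK39 shared with CFTR the order of libraries in 10 of 10 conditions (0.78% of all genes compared), and its r with CFTR was 0.73. The higher gene was the kinase WNK4 in proximal lung (0.91) and the adenylyl cyclase ADCY6 in distal lung (0.36).

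Genes that act in the folding and degradation of CFTR made up the next list. Of 17 tested, 1 was higher and 1 lower in CF proximal lung, and 1 higher and 2 lower in distal lung, with medians of 0.02 and -0.04, where 21.8 and 31.2% of all genes were called. DERL1, which extracts misfolded CFTR from the endoplasmic reticulum, fell by 0.28 and 0.23. It lay below WT in 10 of 10 conditions (0.78% of all genes compared), and the ubiquitin ligase SYVN1 rose by 0.56 and 0.52. The chaperone HSP90AB1 fell by 0.23 in distal lung. CFTR thus differed more in size than any called member of this list.

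Transcription factors known to act at the CFTR locus in airway or intestinal cells were also counted. Of 16 tested, 0 were higher and 1 lower in each region, with medians of -0.08 and 0.00, where 21.8 and 31.2% of all genes were called. The lower one was KLF5, which fell by 0.47 in proximal (edgeR average, adjusted p = 0.019) and by 0.54 in distal lung (adjusted p = 0.0015). ELF5, an epithelial ETS factor, had r = 0.89 with CFTR within WT and 0.33 within CF libraries. It fell from 80 days to term by 2.57 in WT proximal and 1.76 in WT distal lung, while the log2 difference in CF was 0.18 in both regions, and at term it was higher in CF than in WT proximal lung by 2.7 (adjusted p = 0.041). Over the same interval in WT lung, 6 of the tested factors rose and 2 fell in proximal, and 6 rose and 4 fell in distal lung, beside 21.7 and 21.5% of all genes that rose and 19.7 and 20.1% that fell.

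Markers of other cell types show what the tissue pieces held beside epithelium, and their part in the CFTR differences was not tested. Before term the summed level of the 17 epithelial markers was 859 to 1766 CPM in CF and 940 to 1502 CPM in WT libraries, and at term 1378 to 2963 against 2723 to 3245 CPM. Between genotypes over all time points, 3 of 17 epithelial markers were higher and 2 lower in CF proximal lung, and 3 higher and 3 lower in distal lung, with medians of 0.04 and -0.13 and with 21.8 and 31.2% of all genes called. EPCAM fell by 0.60 and 0.54, while ESRP2 rose by 0.59 and 0.62, ST14 by 0.55 and 0.44 and TJP3 by 0.64 and 0.40. The term difference in CFTR of -1.43 in distal lung stood beside 4 of 17 epithelial markers that were lower there and 0 that were higher, with 15.2% of all genes called. The summed levels of immune and of alveolar type 1 markers were also lower in CF at term, but single immune markers differed. Over all libraries, the macrophage gene MARCO reached 494 CPM in WT and 13.5 CPM in CF. The lymphocyte genes CD3E and CD79A had their highest library in CF, at 33.0 against 12.6 and 8.37 against 7.20 CPM. The summed immune markers were at 90.2 to 202 CPM in CF against 361 to 769 CPM in WT, with 3 of 6 lower in proximal (6.09% of all genes called there) and 2 of 6 in distal lung, and the type 1 markers at 1474 to 2860 against 4508 to 5390 CPM, with 2 and 3 of 6 lower. Before term these sums overlapped, at 52.3 to 97.6 against 43.5 to 83.0 CPM and at 250.4 to 2073 against 310.1 to 2354 CPM. KRT19 was not in the table.

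Most smooth muscle markers differed between genotypes. Of 6 markers, 5 were higher and 0 lower in CF in each region over all time points, where 21.8% of all genes in proximal and 31.2% in distal lung were called, with medians of 0.79 and 0.64, and their sum before term was 637 to 1516 CPM in CF and 286 to 765 CPM in WT libraries. At term the sum was 274 to 543 CPM in CF and 582 to 965 CPM in WT, with 0 higher and 2 lower in proximal and 0 higher and 4 lower in distal lung, where 6.09 and 15.2% of all genes were called. Over all time points, mesenchymal markers were higher in CF for 2 of 8 in proximal and 4 of 8 in distal lung, and alveolar type 2 markers for 2 and 4 of 8. Alveolar type 1 markers were lower for 1 and 4 of 6, again beside 21.8 and 31.2% of all genes called in either direction.

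Ionocytes, a rare airway cell type with very high CFTR, left little trace in these libraries. The markers ASCL3, ATP6V1G3 and BSND were under 1 CPM in every library, and none of those present was at 0 in all 40 libraries. FOXI1, the factor that specifies ionocytes, was at 1.85 and 2.7 CPM at term in WT proximal and 2.57 and 3.75 CPM in WT distal lung, against 0.369 and 0.0662 and 0.802 and 0.0892 CPM in CF. At term FOXI1 fell in CF by 3.37 in proximal (edgeR adjusted p = 0.043) and by 2.80 in distal lung (adjusted p = 0.036). Before term the summed level of the list was 0.767 to 2.95 CPM in CF and 0.549 to 2.47 CPM in WT libraries, and at term 0.386 to 1.09 against 2.34 to 4.22 CPM. The sums overlapped before term and did not overlap at term, and their part in the CFTR difference was not tested.

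Genes around CFTR on chromosome 4 were read to see how far the genotype difference extends along the chromosome. Of 16 genes that start within 1 Mb of CFTR, 15 were tested in proximal and 14 in distal lung. In CF, 0 were higher and 5 lower in proximal lung, and 1 was higher and 8 lower in distal lung, with medians of -0.38 and -0.44 against 0.04 and 0.01 over all genes and 7.91 and 13.2% of all genes called lower. The share of lower genes was thus above that of the whole table in both regions.

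The nearest neighbours did not share one pattern. CTTNBP2, 56.5 kb away on the side of the lower coordinates, fell by 0.34 in proximal lung (adjusted p = 0.042) and was not called in distal lung. ASZ1, a germ cell gene 43.8 kb away on the other side, had a difference of -1.12 in proximal lung (adjusted p = 0.092) and fell by 1.89 in distal lung (edgeR average, adjusted p = 0.0019). It was low throughout, at most 5.66 CPM in WT distal lung. LOC106991129, 59.9 kb away, rose by 0.82 in distal lung (edgeR average, adjusted p = 0.021). It was near the floor, at most 1.10 CPM in WT and 1.27 CPM in CF libraries, and lies within the span of CTTNBP2 on the other strand. WNT2, 131 kb away, a growth factor of the lung mesenchyme, fell by 0.51 in distal lung (adjusted p = 0.033), and ST7, 234 kb away, and MET, 655 kb away, were not called in either region.

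Some genes farther out resembled CFTR in the order of genotypes. CAPZA2, a subunit of the actin capping protein 527 kb away, was at 81.7 and 85.1 CPM in WT against 58.1 and 58.1 in CF distal lung at 65 days, and at 106 and 87.6 against 81.1 and 78.5 at term. Both CF libraries of CAPZA2 lay below both WT libraries in 10 of 10 conditions (0.78% of all genes compared). It fell by 0.55 in proximal (edgeR average, adjusted p = 0.0014) and by 0.50 in distal lung (adjusted p = 2.1e-05). Over time it was unlike CFTR, with r = 0.01. CAV2, 958 kb away, fell by 0.48 and 0.32. On the other side LOC101108907, 480 kb away, fell by 0.52 and 0.53, and EPDR1, 891 kb away, by 0.58 and 0.48, while STARD3NL, 583 kb away, had differences of -0.05 and 0.04. CFTR, at -0.86 and -0.71, thus lay among several neighbours with lower levels in CF. Others were not called, and 1 near the floor, LOC106991129, was higher in distal lung.

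**Figure D5:**
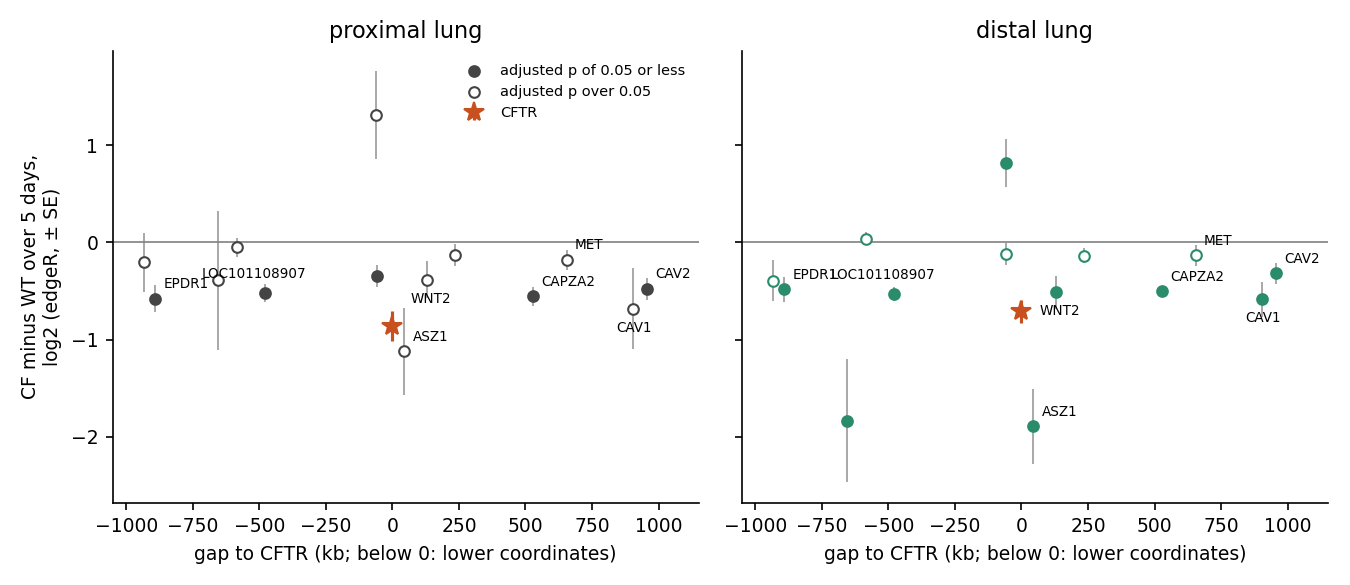
Difference between CF and WT lung on the log2 scale (vertical axis, edgeR average over the 5 time points with SE) for CFTR and the genes tested in both regions that start within 1 Mb of it, by the gap between the gene and CFTR in kb (horizontal axis, negative on the side of the lower coordinates), proximal lung left and distal lung right. Most points lie below 0, with CFTR at -0.86 and -0.71.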

How the data were processed

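Per the study's methods, RNA from frozen lung pieces was sequenced as paired reads of oligo dT libraries, aligned with STAR to Oar_v4.0 (version 2.6 in the submitters' processing notes, a later version in the study's methods) and assigned to genes with featureCounts 1.6.3. The deposited values are raw read counts per gene that the authors did not normalize, in 1 table per genotype and region. Strand setting, annotation release and treatment of mates are not given in the sources used here. Most low counts were even, so 2 counts may stand for 1 fragment, and a count is not an independent molecule. Day 50, also part of the study, was not analysed here.

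Genes with low counts were removed with filterByExpr (minimum count 10, minimum total 15), libraries were scaled by TMM, and edgeR 4.0.16 in R 4.3.3 fitted its quasi-likelihood model across all genes, with p-values adjusted by Benjamini-Hochberg across the genes of each fit and a limit of 0.05. CF and WT were compared in 1 fit per region with a mean for each genotype and time point, time points in 1 fit per course, and regions with the animal as a block. The average over time points in edgeR weights the 5 differences equally. Permutation tests on log2 CPM (prior count 0.5) were exact and two-sided. Alternatives were DESeq2 1.42.0, RLE scaling, no filter, counts thinned to equal depth, edgeR's bias-adjusted fit, a replicate block, removal of a trend with gene length (lowess, span 0.3), summed WT day 100 libraries and leaving out each library. Fits were tested on simulated data.

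CFTR, the gene lists and the tests were chosen with earlier results of these data known. Named genes are those with the largest log2 difference of their list in a comparison or the defining genes of a role, others of the lists that passed a test or lay on 1 side in every condition being chosen after their values were seen, the 10 genes most like and the 5 most unlike CFTR by Pearson's r, and genes that start within 1 Mb of it. Some items are not reported here. Proximal and distal libraries of 1 animal are paired by the animal labels: deviations from the group means correlated between them at -0.46 to 0.86 (median 0.52, 7 of 10 over 0.1).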

Additional observations from a re-analysis of the deposited data

How the results depend on the processing

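Each library was left out in turn and other settings were tried for 64 CFTR values. Of 475 alternatives other than leaving out a library, 461 kept the direction and the side of the limit or, for values with no test, moved by less than the replicate SD. Every library held at least 267 CFTR counts, and each group has 2 libraries, so that 1 library often decides a value at a single age. The lower CFTR of CF lung averaged over time points kept its direction and its call under all alternatives run.

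The CFTR values that changed were mostly steps in time. With DESeq2, 4 more steps passed, at -0.89 (80 to 100 days, WT proximal), -0.97 (100 to 120 days, WT proximal), -1.30 (100 to 120 days, CF distal) and -0.94 (120 days to term, CF distal), with adjusted p = 0.00876, 0.00294, 0.00783 and 0.0299. Without the filter on low counts the WT proximal step from 100 to 120 days passed at -0.98 (adjusted p = 0.0415). With the WT day 100 libraries summed, the WT distal step from 100 to 120 days was -1.25 and no longer passed (adjusted p = 0.122). The joint test over time in CF proximal lung had an adjusted p = 0.0530 with RLE scaling. Removing the trend with gene length gave -0.092 for the genotype difference in the step from 65 to 80 days in distal lung, and in CF distal lung 0.31 for that step, -0.52 for 120 days to term and -2.36 for 80 days to term. The same step turned small values that had not passed, among them 120 days to term in WT distal lung (-0.07 to 0.22) and distal minus proximal in CF at 65 days (-0.18 to 0.063) and in WT at term (-0.03 to 0.14), and moved 120 days to term in WT proximal lung from 0.05 to 0.22 and distal minus proximal in CF from 0.49 to 0.25 at 80 days and from 0.25 to 0.058 at 120 days. Thinned to equal depth, the WT distal minus proximal difference was 0.03 at 80 days and -0.0097 at 120 days. The cause was not tested.

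With the replicate number as a block, the joint test over time in CF proximal lung had an adjusted p = 0.107, and no other CFTR call changed. Same-numbered CF and WT libraries of 1 age deviated together in 5 of 10 cases (correlation over 0.1; range -0.27 to 0.39), and libraries of different ages in 17 of 40, so the numbers do not pair them.

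Leaving out 1 library, CF minus WT ranged from -1.24 to -0.44 at 120 days and from -1.71 to -1.08 at term in proximal lung (before that -0.71 to -0.33, -1.37 to -0.48 and -0.85 to -0.52 at 65, 80 and 100 days), and from -1.07 to -0.17 at 120 days in distal lung (before that -0.82 to -0.53, -0.61 to -0.31 and -0.62 to -0.34). At 120 days both regions passed without the first CF library (adjusted p = 0.0297 and 0.0413). The genotype difference in the step from 65 to 80 days ranged from -0.85 to 0.052 in proximal lung, that from 80 to 100 days from -0.20 to 0.70 in proximal and -0.17 to 0.13 in distal, that from 100 to 120 days from -0.56 to 0.24 and -0.60 to 0.31, and that from 120 days to term from -1.30 to -0.39 in distal and -1.01 to -0.20 in proximal lung. In WT proximal lung the step from 80 to 100 days ranged from -1.01 to -0.78, that from 100 to 120 days from -1.09 to -0.86 and that to term from -0.31 to 0.34. Without either term library, which neither of the first 2 steps uses, these were -0.91 and -0.97 and on the other side of the edgeR limit. In WT distal lung the last 2 steps ranged from -1.41 to -1.14 and from -0.26 to 0.068. In CF proximal lung, 65 to 80 days ranged from -0.45 to 0.42, the next 3 steps from -1.06 to -0.19, -1.54 to -0.74 and -0.98 to -0.18, 80 days to term from -2.77 to -1.90, and the adjusted p of the joint test from 0.0122 to 0.167. In CF distal lung, 100 to 120 days ranged from -1.87 to -0.93 and 120 days to term from -1.39 to -0.45, passing without the first (adjusted p = 0.0483) and the second CF day 120 library (0.00902). Distal minus proximal ranged in WT from -0.10 to 0.0077, -0.024 to 0.0044, -0.18 to 0.27 and -0.21 to 0.14 at 65, 80 and 120 days and term, and over all ages in CF from 0.13 to 0.26.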
